A study of Rattus norvegicus with 36 samples.

Results

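Abcb1b and Abcb1a are neighbouring rat genes for multidrug transporters, and their transcripts were followed in thyroids taken 24 h after an intravenous injection of 131I. All non-control probes whose array annotation maps to either symbol were taken, which gave 3 of the 30367 probes on the array, for 2 of the 15154 genes named on it. Abcb1b had 2 of these probes and Abcb1a had 1. The animals were adult male Sprague Dawley rats with no engineered allele, 36 in all, in 9 groups of 4. The irradiated groups received 9, 88, 170 and 260 kBq of 131I at the lower end and 340, 760, 1300 and 4700 kBq at the upper end, into the tail vein, and the 0 kBq rats were mock-treated controls. RNA of each rat's thyroid was hybridised to its own 1-colour array. The irradiated groups were injected in order of activity and the controls last, so among the irradiated groups activity and order of injection cannot be told apart, while the controls came directly after the 4700 kBq group. Abcb1b was selected on its signal in these arrays, which was higher at higher activities, so its group values are a description without a test.

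Abcb1b and Abcb1a encode P-glycoproteins, pumps in the cell membrane that use ATP to export drugs, steroids and other lipophilic compounds. Rodents carry this pair of genes where humans have a single one, and Abcb1a is best known from the endothelium of the blood-brain barrier and from the intestine, Abcb1b from adrenal, kidney and uterus. Transcription of the rodent Abcb1b gene can be induced by DNA damage and by cytotoxic drugs, and p53 is among the factors described at these genes. In the thyroid, follicular cells take up iodide through the sodium-iodide symporter, so radioactive iodine irradiates the follicles from within.

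In the RefSeq annotation of GRCr8 both genes lie on the minus strand of chromosome 4, Abcb1b at chr4:26197706-26280156 and Abcb1a beside it at chr4:26312403-26488456. The array files give no probe positions on this build, so which exon each probe reads is not stated here. The stretches below lie from base 250 to base 128 before the start that the RefSeq promoter table gives each gene. They are shown because the factors in the list of Abcb1 regulators described further on bind such boxes. Capitals mark CCAAT (on either strand, so ATTGG as printed for the reverse strand), GGGCGG and TGANTCA, which were searched on both strands together with GAANNTTC and the p53 half-site. The Abcb1a stretch, chr4:26397776-26397898, lies inside the annotated span of its gene, whereas the Abcb1b stretch, chr4:26280157-26280279, lies before it.

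Abcb1b: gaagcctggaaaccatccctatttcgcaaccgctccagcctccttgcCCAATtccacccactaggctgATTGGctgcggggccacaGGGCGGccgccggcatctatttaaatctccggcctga

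Abcb1a: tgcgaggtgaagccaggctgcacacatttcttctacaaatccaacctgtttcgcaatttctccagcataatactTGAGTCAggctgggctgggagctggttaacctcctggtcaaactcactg

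The Abcb1b stretch held 2 CCAAT boxes, one on each strand, and 1 GGGCGG box, and the Abcb1a stretch held 1 TGANTCA site. Of 33469 rat promoters searched over the same 123 bases, 17.5% held CCAAT, 13.0% held GGGCGG and 3.21% held TGANTCA. The GAANNTTC core, in 3.35% of promoters, and the p53 half-site, in 3.55%, had no match in either stretch. No match says only that these letters are not in this window.

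All levels of single probes are log2 signals relative to the 75th percentile of the same array, so that 0 stands for a bright probe and each unit for a doubling. The arrays had 62.6% to 90.7% of their probes well above background, no saturated spot, and a 75th percentile of 1564 to 4288 signal units. The highest share was that of 340 kBq rat 4, and the next was 79.0% in 9 kBq rat 2. In the check of the tissue, all 11 follicular cell markers were measured, and 6 of them were well above background on all 36 arrays, while Slc5a5 (the symporter), Iyd, Pax8, Nkx2-1 and Dio1 were so on 22 to 35. In whole tissue, fewer cells of a type and less RNA per cell cannot be told apart.

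The lead Abcb1b probe (A_64_P010925, the brighter of the pair) was well above background on all 36 arrays. Its level was -4.01, -2.83, -2.28 and -4.30 in control rats 1 to 4. At 760 kBq it was -1.83, -1.98, -1.80 and -2.14, and at 1300 kBq it was -2.01, -2.19, -1.82 and -1.01. All 8 of these rats lay above all 4 controls. At 4700 kBq the levels were -0.50, -1.39, -2.29 and -0.66. Rats 1, 2 and 4 lay above every control and rat 3 lay just under the highest control, so the groups overlapped by that rat alone.

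The lower activities overlapped with the controls. At 9 kBq the lead probe read -2.63, -2.64, -1.88 and -1.89, with 2 of 4 rats above every control. At 88 kBq it read -2.22, -1.84, -4.27 and -3.39, the widest spread of the irradiated groups, with 2 rats above every control and rat 3 nearly as low as the lowest control. At 170 kBq it read -3.19, -3.34, -2.45 and -2.15, with 1 rat above every control. The 260 kBq rats were at -2.99, -2.84, -2.09 and -2.26 and the 340 kBq rats at -2.04, -2.23, -2.29 and -2.73, each with 2 rats above every control.

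Against the control mean of -3.36 ± 0.96 (SD, n = 4), the lead Abcb1b probe was higher by 2.15 (SE 0.46) at 4700 kBq, a 4.43-fold difference. The differences were 1.09 at 9 kBq, 0.43 at 88 kBq, 0.57 at 170 kBq, 0.81 at 260 kBq, 1.04 at 340 kBq, 1.42 at 760 kBq and 1.60 at 1300 kBq. These are folds of 2.14, 1.34, 1.49, 1.75, 2.05, 2.68 and 3.03. All 8 differences share the same 4 controls. The median probe of the whole array was shifted by 0.31 at 340 kBq and 0.22 at 1300 kBq and by less in the other groups, with 0.09 at 4700 kBq. Relative to that shift the lead probe stood 1.02 higher at 9 kBq, 0.73 at 340 kBq, 1.34 at 760 kBq, 1.38 at 1300 kBq and 2.05 at 4700 kBq.

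Ordered by mean level, the groups ran 0, 88, 170, 260, 340, 9, 760, 1300 and 4700 kBq, so the 9 kBq group stood out of the order of activity. Every pair of neighbours in this order overlapped and differed by less than the larger of their SDs. Over the 32 irradiated rats the lead probe rose by 0.47 (SE 0.15) per 10-fold activity, a factor of 1.39, and the median probe by 0.03. Without the 4700 kBq group the slope was 0.27 (SE 0.18). Markers of the tissue's cells also had slopes with activity. The median slope was 1.32 for the 11 follicular markers, all 11 of which were above 0, 1.29 for the 4 C cell and 1.46 for the 3 parathyroid markers. It was -1.69 for the 4 squamous epithelium and -1.12 for the 4 cartilage markers. In the slope 0 of these lists' genes were called, against 0.0132% of all probes, and 17257 of 30367 probes had a slope above 0. The part of these cells in the Abcb1b slope was not tested. The arrays came from 5 slides. Within slide 1 the 4700 kBq rats were 1.82 above the controls (2 rats each), and within slide 5 they were 3.51 above (1 rat each). The slopes within the 5 slides were 0.54, 0.15, 0.86, 0.31 and 0.42, all upwards, from 6 or 7 irradiated rats each. Slide 2 reached only 1300 kBq and slide 4 only 760 kBq. These slopes split the values on which the gene was chosen, so their shared direction is not further support.

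For background, all 4 rats lay above all 4 controls for 1.38% of probes at 760 kBq, 1.07% at 1300 kBq and 0.715% at 4700 kBq. With limma's moderated test, 0 of 30367 probes (0%) were regulated at 4700 kBq (adjusted p below 0.01, with a change of 1.5-fold or more), and 390 were higher and 113 lower at an unadjusted p under 0.05. Since the rule used these contrasts, nothing is read from where Abcb1b falls in them.

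**Figure D1:**
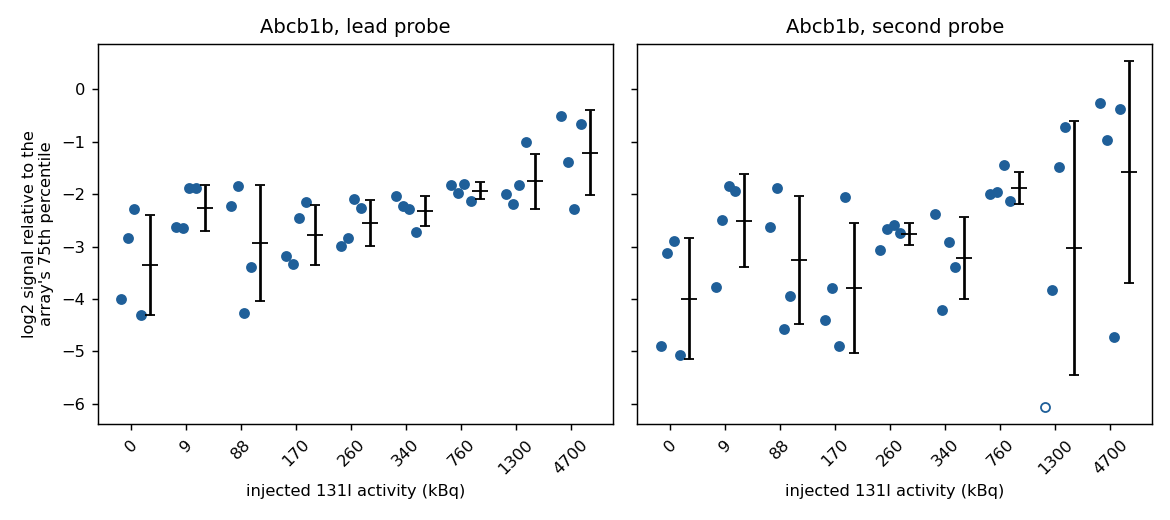
Level of the lead (left) and second (right) Abcb1b probe against injected activity in kBq, as log2 signal relative to the array's 75th percentile. Each point is a rat (an open point was not well above background), and bars to the right of the points are the group mean ± SD (n = 4). On the left the group means run from -3.36 in controls to -1.21 at 4700 kBq, and on the right single rats at 1300 and 4700 kBq lie far under the others.

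The second Abcb1b probe (A_64_P039888) shared the higher levels at 760 kBq but spread far more. Its control rats were at -4.90, -3.12, -2.89 and -5.08 and the 760 kBq rats at -2.01, -1.95, -1.45 and -2.14, again all above every control. At 1300 kBq it read -6.06, -3.83, -1.49 and -0.72, and rat 1 was the only array of 36 on which it was not well above background. At 4700 kBq it read -0.27, -0.96, -4.73 and -0.38. Rat 3 fell into the range of the controls and the other 3 rats lay above every control.

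In the other groups the second probe ran from -3.76 to -1.84 at 9 kBq, from -4.58 to -1.88 at 88 kBq, from -4.90 to -2.05 at 170 kBq, from -3.07 to -2.59 at 260 kBq and from -4.21 to -2.37 at 340 kBq. Each of these ranges overlapped that of the controls. The second probe differed from controls by 1.49 at 9 kBq, 0.74 at 88 kBq, 0.21 at 170 kBq, 1.23 at 260 kBq and 0.77 at 340 kBq. The difference was 2.11 at 760 kBq, 0.97 at 1300 kBq and 2.41 (SE 0.92) at 4700 kBq. Ordered by its mean level, the groups ran 0, 170, 88, 340, 1300, 260, 9, 760 and 4700 kBq, so several stood out of the order of activity. The slope of this probe was 0.36 (SE 0.31) per 10-fold activity. The slopes within the 5 slides were 0.11, -0.51, 1.21, 0.93 and 0.49, so that of slide 2 ran the other way.

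The probes of this gene disagreed in some rats. The second probe minus the lead probe had a median of -0.32 and was within 1 unit in 29 rats. In 7 rats the second probe was lower by more than 1 unit, and the gap reached -4.05 in 1300 kBq rat 1, -2.44 in 4700 kBq rat 3 and in 170 kBq rat 3, and -1.98 in 340 kBq rat 2. In no rat was it higher by more than 1.

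Of the 7 rats with a gap over 1, 6 were among the 8 dimmest arrays by the 75th percentile. Within groups, the gap moved with the log2 of that percentile (Pearson's r = 0.64, permutation p = 9.5e-04, adjusted p = 0.00237 over 5 measures; Spearman's rho = 0.65, permutation p = 8.8e-04; r = 0.61 without the 2 farthest rats). The second probe moved with it too (r = 0.51, permutation p = 0.0107, adjusted p = 0.0178; rho = 0.42, permutation p = 0.0278; r = 0.47 without the 2 farthest rats). The lead probe had r = 0.08 with it (permutation p = 0.605, adjusted p = 0.756; rho = 0.06, permutation p = 0.729). The part of array brightness in the gap was not tested. Without these 7 rats the lead probe differed by 2.51 (SE 0.51) at 4700 kBq with a slope of 0.57 (SE 0.19), and the second by 3.46 (SE 0.57) with a slope of 0.71 (SE 0.24). Leaving them out was chosen after the values were seen. They were picked by a low second probe and included 4700 kBq rat 3 and 1300 kBq rats 1 and 2, but no control. Part of the second probe's larger difference and slope without them is therefore built in.

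**Figure D2:**
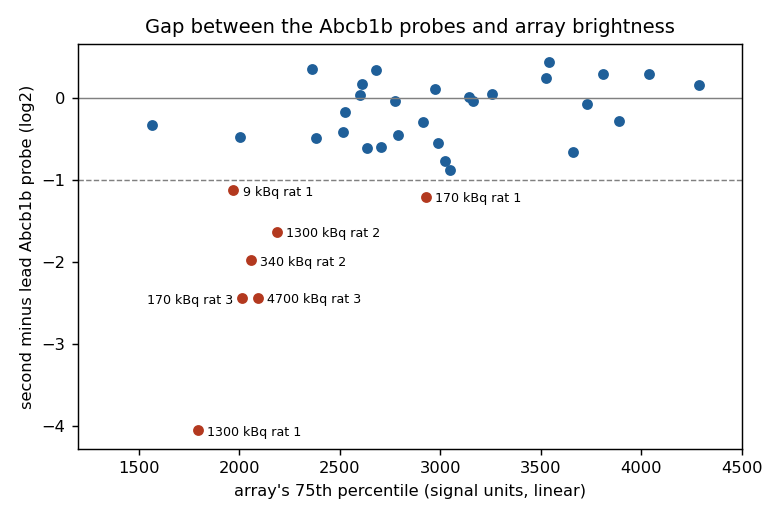
Gap between the Abcb1b probes (second minus lead, log2) against the array's 75th percentile in linear signal units, a point for each of the 36 rats. Red points are the 7 rats under -1 (dashed line), of which 6 are among the 8 dimmest arrays.

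Abcb1a was not detected. Its probe (A_44_P279083) was well above background on 0 of 36 arrays, with levels from -9.54 to -7.08 and a median of -8.73. The lowest signal that was well above background on each array ran from -8.45 to -6.65, with a median of -7.65, and the Abcb1a probe lay under it on 35 of 36 arrays. Control rats were at -7.83 for rat 3 and -9.31 to -9.07 for the others, and the 4700 kBq rats spanned -8.92 to -8.25. The groups overlapped and every value was a background signal, so no fold is given.

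The fit of Abcb1a called nothing. In limma, 4700 kBq minus 0 kBq was 0.26 (SE 0.36, adjusted p = 1) and the slope was 0.20 (SE 0.11, adjusted p = 0.494) per 10-fold activity. The 8 exact permutation tests against controls had adjusted p = 0.971 each. Since the probe did not read the transcript above background, whether Abcb1a shares the higher Abcb1b levels was not detectable with this array, and this does not show that it is unchanged.

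**Figure D3:**
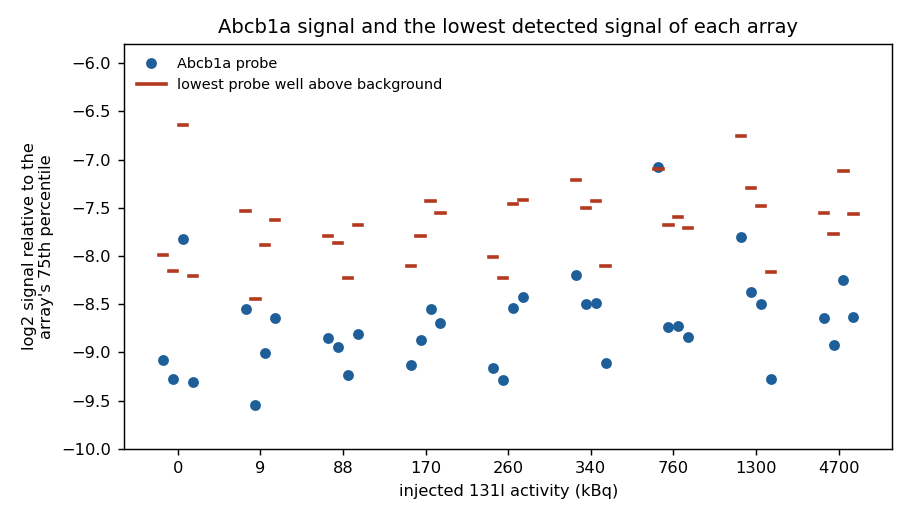
Abcb1a probe (blue points, a point for each rat) and the lowest signal well above background on the same array (red bars), both as log2 signal relative to the array's 75th percentile, by injected activity in kBq. The Abcb1a points lie under the bar on 35 of 36 arrays.

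The p53 targets were taken as a list of 32 genes, of which 27 were measured and 23 were well above background on all 36 arrays. None was regulated at 4700 kBq or in the slope at an adjusted p under 0.01, against 0% and 0.0132% of all probes. At an unadjusted p under 0.05, 8 were higher at 4700 kBq and 0 lower, against 1.28% and 0.372% of all probes. In the slope 6 rose and 1 fell at this limit, against 4.53% and 6.33%. The list's median difference at 4700 kBq was 0.47, with 20 of 27 genes higher, against 0.09 and 18779 of 30367 probes higher over the whole array.

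Mdm2, the ubiquitin ligase that degrades p53 and is itself induced by it, was at -0.41, -0.07, 0.38 and -0.47 in controls and at 1.30, 1.67, 1.11 and 0.85 at 4700 kBq. The groups did not overlap. The difference was 1.38 (SE 0.24, limma adjusted p = 0.0332), and the slope was 0.46 per 10-fold activity (SE 0.09, adjusted p = 0.0296). The other Mdm2 probe differed by 1.19 (SE 0.21, limma adjusted p = 0.0332), with a slope of 0.33 (SE 0.07, adjusted p = 0.0858). Aen, a nuclease of p53-dependent apoptosis, was at 0.53 to 1.03 in controls and at 3.08, 3.46, 1.30 and 3.26 at 4700 kBq, again without overlap, a difference of 1.92 (SE 0.41, adjusted p = 0.232). Rat 3 was the lowest of its group here too. The other Aen probe differed by 1.74 (SE 0.51).

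Cdkn1a (p21), the inhibitor of cyclin-dependent kinases that arrests the cell cycle, spread as Abcb1b did. It read 0.18, 0.76, 3.25 and 1.61 in controls and 4.92, 4.99, 0.99 and 4.55 at 4700 kBq, so rat 3 fell inside the control range and the other 3 lay above it. The difference was 2.41 (SE 0.82, adjusted p = 1), while the other Cdkn1a probe differed by 0.24 (SE 0.30). With its own processing and test, the paper reported Cdkn1a as significantly regulated in this group alone, and as higher there by quantitative PCR too.

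Among the other targets with the largest differences, Gdf15, a stress-induced cytokine, differed by 3.93 (SE 2.10), Plk2, a polo-like kinase, by 1.72 (SE 0.66) and the membrane protein gene Perp by -1.73 (SE 2.28), and none passed the test. Ccng1 (cyclin G1) differed by 0.82 (SE 0.76), the pro-apoptotic Bax by 0.69 (SE 0.29) and Phlda3, an inhibitor of Akt signalling, by 0.51 (SE 0.49). In 4 genes all 4 rats lay above all 4 controls, against 0.715% of all probes: Mdm2, Aen, the ribonucleotide reductase subunit Rrm2b and Ei24, the last pair named after their values were seen.

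**Figure D4:**
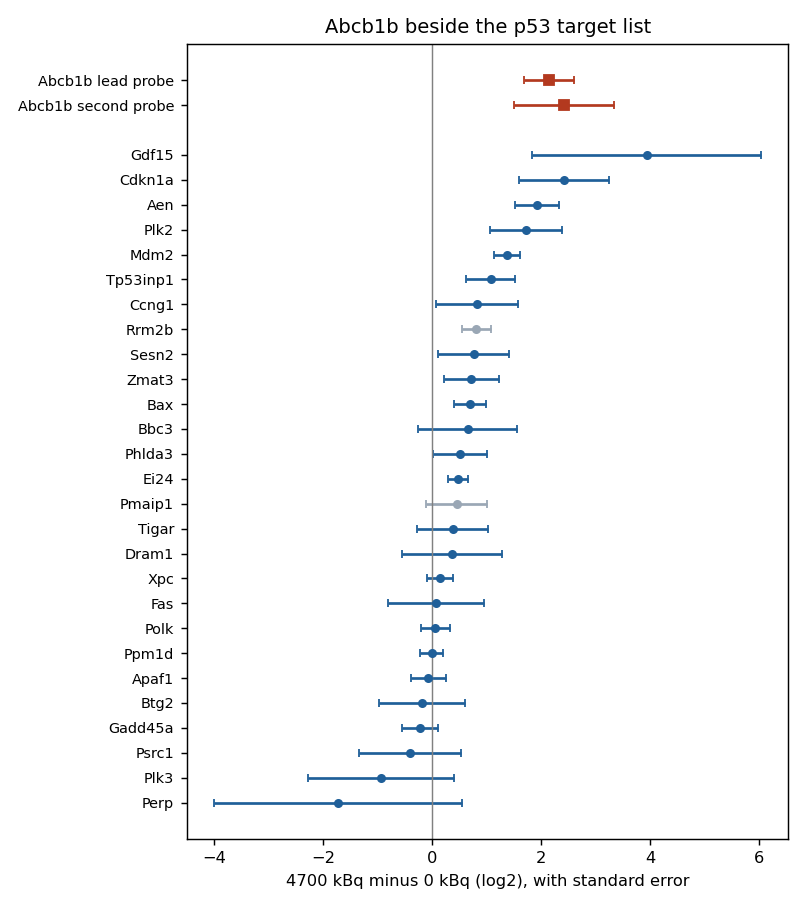
Difference between 4700 kBq and 0 kBq (log2) with its standard error for both Abcb1b probes (red squares) and the 27 measured p53 targets (circles, grey where not well above background on all 8 arrays). Abcb1b stands at 2.15 and 2.41, Cdkn1a at 2.41, Aen at 1.92 and Mdm2 at 1.38.

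The genes most like the lead Abcb1b probe over the 36 arrays were sought among 9419 genes well above background on every array. The 10 highest were Cdkn1a (r = 0.78), Hapln3 (0.75), Mdm2 by its other probe (0.74), Plk2 (0.70), Ccl2 (0.64), Aen (0.62), Alox5 (0.61), Ccl7 (0.60), Mgmt (0.60) and Slc27a3 (0.53). Cdkn1a, Mdm2, Plk2 and Aen are on the p53 list, Ccl2 and Ccl7 are chemokines that attract monocytes, Alox5 is the leukotriene-forming lipoxygenase and Mgmt repairs alkylated guanine. The arrays share group and brightness, so these r values are a description. The second probe had another order, led by Aen through its other probe (0.84), Slc27a3 (0.74) and Bax (0.74). The 5 genes most like the Abcb1a probe, Phldb1, Lrrk2, Slirp, Slc25a11 and Trak2 (0.71 to 0.74), were likened to a background signal.

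Whether Abcb1b and the p53 targets vary together between rats of the same group was tested on deviations from the group means, in a family of 58 relations over the 36 rats. The lead probe had r = 0.36 with the mean of the p53 list (permutation p = 0.0368, adjusted p = 0.0802; rho = 0.32, permutation p = 0.0531), which did not pass the correction. It fell to 0.17 without the 2 farthest rats, to 0.19 (permutation p = 0.240) without 4700 kBq rat 3 and to 0.039 (permutation p = 0.827) without the 7 rats with a probe gap over 1, so this relation was carried by few rats. The 7 rats were picked by a gap that contains the lead probe itself.

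With Cdkn1a alone the lead Abcb1b probe had r = 0.70 (permutation p = 1.5e-04, adjusted p = 0.00186) and rho = 0.69 (permutation p = 2.0e-04). The value was 0.65 without the 2 farthest rats and 0.63 (permutation p = 0.00666) without the 7 rats with a probe gap. Cdkn1a was read here by its brighter probe, and no relation with its other probe is given. The paper calls the rat-by-rat correlation between its quantitative PCR and array values for Cdkn1a weak, though with a significant slope. Mdm2 (r = 0.42, permutation p = 0.0353, adjusted p = 0.0802), Ccng1 (0.37), Aen (0.32), Bax (0.22) and Phlda3 (-0.13) did not pass. For the mean of these 6 targets r was 0.61 (permutation p = 9.0e-05, not adjusted). This mean contains Cdkn1a, and its value without Cdkn1a is not given here, so it does not speak for the other targets.

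The second Abcb1b probe had r = 0.84 with the p53 list mean (permutation p = 6.0e-05, adjusted p = 0.00174; rho = 0.74, permutation p = 7.0e-05) and 0.68 without the 2 farthest rats. Without the 7 rats with a probe gap over 1 it was 0.22 (permutation p = 0.228), but those rats were picked because this probe was low in them, so part of that fall is built in. Of the single targets, Aen (r = 0.67, permutation test, adjusted p = 0.0138), Bax (0.66, 0.0154) and Cdkn1a (0.60, 0.0134) passed with the second probe. Phlda3 (0.33), Mdm2 (0.0068) and Ccng1 (-0.14) did not, so apart from Cdkn1a the targets that passed depended on the probe. The p53 list mean itself moved with array brightness within groups (r = 0.69, permutation p = 3.7e-04, adjusted p = 0.00185, rho = 0.71), as the second probe did, and Cdkn1a had r = -0.02 with brightness (permutation p = 0.914). The part of brightness in these relations was not tested.

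**Figure D5:**
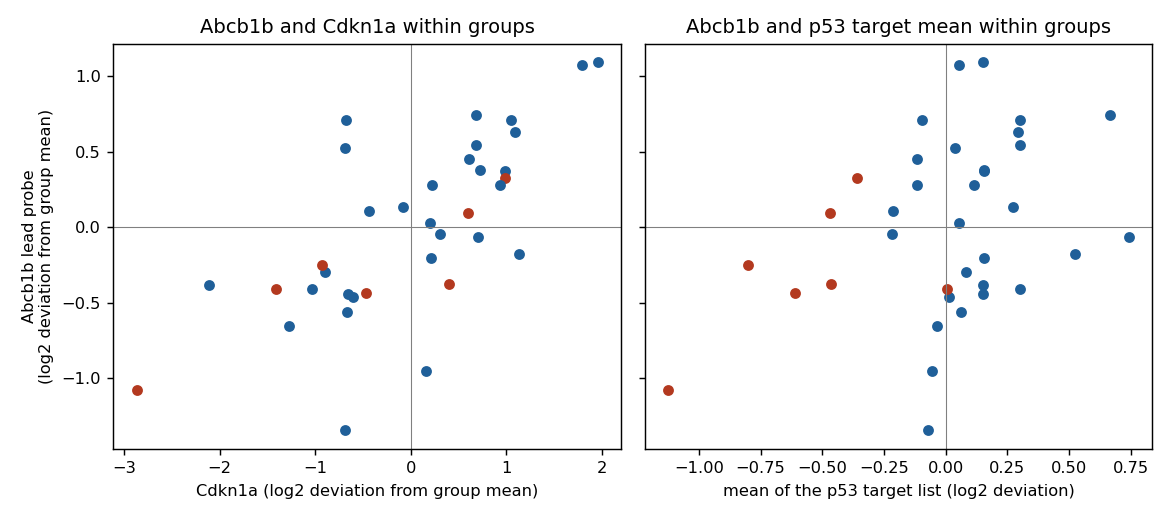
Deviation of the lead Abcb1b probe from its group mean against that of Cdkn1a (left) and of the p53 list mean (right), all log2, a point for each of the 36 rats. Red points are the 7 rats whose Abcb1b probes differ by over 1. The points on the left follow a common rise (r = 0.70), and on the right the red points hold the lowest p53 values (r = 0.36).

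The Abcb1a probe had r = -0.46 with the p53 list mean (permutation p = 0.00265, adjusted p = 0.0128, rho = -0.49). The difference in r between the lead Abcb1b probe and the Abcb1a probe was 0.81 (permutation p = 1.1e-04, adjusted p = 0.00186). As the Abcb1a values are background signals whose distance from the 75th percentile changes with the array, this difference describes a probe and not the transcript.

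Markers of other cells also moved with the lead Abcb1b probe between rats of a group. The macrophage list (5 of 5 measured, all well above background) had r = 0.58 with the lead probe (permutation p = 0.00243, adjusted p = 0.0128, rho = 0.54, and 0.65 without the 2 farthest rats), and its list mean, a log2 deviation from each gene's own mean, ran from -0.53 to 0.77 in controls and from -1.54 to 0.20 at 4700 kBq. The squamous epithelium list (4 of 5 measured, Krt13 well above background on 31 arrays) had r = 0.53 (permutation p = 3.6e-04, adjusted p = 0.00232, rho = 0.53, and 0.41 without the 2 farthest). Its mean ran from -2.76 to 5.02 in controls and from -4.64 to -1.67 at 4700 kBq. The adipose list (5 of 6 measured, Lep on 9 arrays and Ucp1 on 27) had r = -0.50 (permutation p = 0.00323, adjusted p = 0.0134, rho = -0.52, and -0.50 without the 2 farthest), with means of -1.34 to 2.46 in controls and -0.08 to 0.81 at 4700 kBq. For all 3 lists the ranges of the control and 4700 kBq rats overlapped. With the second Abcb1b probe, the squamous list had r = 0.52 (permutation p = 2.1e-04, adjusted p = 0.00203). By Pearson's r the macrophage list (0.42, permutation p = 0.0341, adjusted p = 0.0802) and the adipose list (-0.22, permutation p = 0.203, adjusted p = 0.288) did not pass with that probe. By rho the macrophage list passed with it (0.47, permutation test, adjusted p = 0.0332) and the adipose list did not (-0.36, adjusted p = 0.0938). With the follicular, endothelial, slow muscle and squamous means as covariates, r of the lead probe with the p53 list mean was 0.76. Its permutation p of 5.0e-05 was not adjusted, and without covariates r was 0.36 (permutation test, adjusted p = 0.0802). The macrophage and adipose means were not among these covariates. By Pearson's r the follicular, endothelial and slow muscle lists had not passed the correction with the lead probe. By rho the endothelial list passed with the lead probe (-0.43, permutation test, adjusted p = 0.0433) and with the second (-0.47, adjusted p = 0.0276). The part of these cells in the Abcb1b level was not tested.

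The other drug efflux pumps were taken as a list of 14 genes. Of these, 13 were measured and 0 were regulated at 4700 kBq or in the slope, against 0% and 0.0132% of all probes. The list's median difference at 4700 kBq was -0.02, and 5 of its genes were well above background on all 8 arrays of the comparison. Abcc4, an exporter of cyclic nucleotides and organic anions, was higher by 0.66 (SE 0.30, unadjusted p = 0.0365, limma adjusted p = 1). Abcc10 differed by 0.20, the phospholipid transporter Abcb4 by 0.13, Abcc5 by -0.12 and Abcc1 by -0.22, each less than its standard error. Slc47a2, with an unadjusted p = 0.0331 in the lower direction, was well above background on 1 of 36 arrays. Abcg2, the breast cancer resistance protein, was so on 21.

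Drug-response genes of the nuclear receptors PXR and CAR, which induce transporters after exposure to foreign compounds, had 13 of 15 measured, 0 regulated and 0 at an unadjusted p under 0.05 at 4700 kBq, with a median difference of -0.04. Of those detected on all 8 arrays, Nr1i2 (PXR) differed by 0.15, Rxra by 0.01, Alas1 by -0.04, Por by -0.24 and Cyp2b2 by -0.25. Of 12 listed regulators of the Abcb1 genes, 11 were measured and 0 were regulated or past the unadjusted limit. The early growth response factor Egr1 differed by 0.64 (SE 0.64), Foxo3 by 0.21, Hif1a by 0.18, Sp1, which binds GC boxes, by 0.14 and Nfyb, a subunit of the CCAAT-binding factor, by 0.11. The 8 listed targets of NRF2, the regulator of the oxidative stress response, had 7 higher at 4700 kBq, among them Gclm, which was well above background on 0 of 36 arrays, with 0 regulated, 0 past the unadjusted limit and a median difference of 0.32. Over all probes, 18779 of 30367 were higher and the median was 0.09. Of all probes, 0% were regulated at 4700 kBq, and 1.28% were higher and 0.372% lower at an unadjusted p under 0.05. Counts of 0 in lists this short are near these shares, so nothing is read from them. In the slope with activity, at an unadjusted p under 0.05, the efflux pumps had 0 rising and 1 falling, the drug-response genes 2 and 0, the regulators 0 and 1 and the NRF2 targets 1 and 1, against 4.53% rising and 6.33% falling over all probes.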

How the data were processed

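Thyroid RNA of 36 rats was measured on Agilent 1-colour arrays (5 slides). The deposited intensity values are per-spot processed signals that, per the file headers, Feature Extraction had background-subtracted on each array; the value table the authors deposited, on a linear intensity scale, had been quantile normalised, and the submitters' processing notes name Partek. Here, log2 of the processed signal minus the array's 75th percentile was used, spots of a probe were averaged and outlier spots left out. Symbols came from RefSeq through the annotated accession (59.3% of probes matched). All 30367 probes were fitted with limma 3.58.1 in R 4.3.3, with a mean per group or with log10 activity over 32 rats, and Benjamini-Hochberg adjustment. Relations used 100000 permutations within groups (smallest p 1e-05). A gene was represented by its brightest probe. Named genes were both members, 6 core p53 targets, the largest differences in each list and the most similar genes. A regulator that this rule picks is not reported here. The number of arrays limits the precision. The paper states that 4 rats shared each cage and does not say whether cages matched the groups. If they did, cage and activity cannot be told apart. Nothing says that rats of a group were processed apart, so p-values measure the spread between these rats. Members and lists were chosen with earlier results of these data known. On simulated data with 200 changed probes of 30268, 97.3% of changes of at least 4 SD at 4700 kBq and 23.0% of smaller ones were called, and 100% of slopes of at least 2 SD per 10-fold activity and 58.0% of smaller ones.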

Additional observations from a re-analysis of the deposited data

Results flagged for a closer look

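In each group of 4 rats, a rat was singled out where its gap to the nearest other rat took most of the group's range (Dixon's criterion). Of 90 groups checked, 8 were singled out, and chance singles out about 1 in 20. The second Abcb1b probe was at -4.73 in 4700 kBq rat 3 against -0.96 to -0.27 in the other rats. In the same rat Cdkn1a was at 0.99 against 4.55 to 4.99 and the p53 list mean at -0.73 against 0.69 to 0.92. The p53 list mean was also low in 9 kBq rat 1, at -0.56 against 0.06 in the others. Both of these rats were among the 7 with an Abcb1b probe gap over 1. Cdkn1a was high in 88 kBq rat 2, at 3.62 against 0.97 to 1.06, and Phlda3 was low in 88 kBq rat 1, at -2.44 against -0.16 to 0.28. The Abcb1a probe was at -7.83 in control rat 3 and at -7.08 in 760 kBq rat 1, both not well above background.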

How the results depend on the processing

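Of 411 values recomputed for 11 results, 367 kept their direction and their side of the threshold or stayed within the spread. The Abcb1b difference at 4700 kBq was 2.95 with array weights and 3.51 within slide 5, and 1.83 to 2.51 leaving out single rats. Its slope was 0.27 without the 4700 kBq group, 0.19 per rank step of activity, 0.15, 0.86 and 0.31 within slides 2, 3 and 4, and 0.39 to 0.58 leaving out single rats. The relation of Abcb1b to the p53 list mean, which was under 0.05 before correction only, had an unadjusted p above 0.05 with quantile normalisation (r = 0.28), median centring (0.30), normexp (0.23), the authors' values (0.28), without the 2 farthest rats (0.17) or without the 7 rats with a probe gap (0.039), and was 0.19 to 0.40 leaving out single rats (the unadjusted p was above 0.05 without 9 kBq rat 1, 88 kBq rat 2, 170 kBq rat 4, 1300 kBq rat 1, 2 or 4, or 4700 kBq rat 1, 3 or 4). The background signal of Abcb1a turned sign at 4700 kBq with quantile normalisation (-0.020), normexp (-0.056) and the authors' values (-0.025), and in its slope within slide 4 (-0.14). Leaving out single rats, that difference was 0.11 to 0.61 and that slope 0.15 to 0.24. Its relation to the p53 list mean no longer passed with quantile normalisation (-0.15), the authors' values (-0.15), without the 2 farthest rats (-0.36), with tissue covariates (-0.31) or with the core targets (-0.029), and was -0.53 to -0.38 leaving out single rats. The difference in r was 0.65 to 0.90. The causes were not tested. Probes called at 4700 kBq were 0, but 1 with normexp, 26 with array weights, 6 at an adjusted p under 0.05 and 0 to 2 leaving out single rats (2 without 4700 kBq rat 3, 1 without control rat 1). Slopes called were 4, but 706 with array weights, 0 without the 4700 kBq group, 14 at an adjusted p under 0.05 and 4 to 6 leaving out single rats. Of the p53 targets, 3 differences and 5 slopes were called with array weights, 1 and 1 at an adjusted p under 0.05, and 0 to 1 differences and 0 slopes leaving out single rats. Rats with the same number in different groups did not deviate together (57 of 144 pairs had r over 0.1, and the median was -0.03 for same and other numbers), so the numbers do not pair rats. With the replicate block the Abcb1b difference was 2.15, its slope 0.47, and the calls 0 and 4. The filter on dim probes kept 21521 probes and removed Abcb1a, which has 1 probe and so no mean of probes. Using the second probe alone and leaving out the 7 rats were chosen after seeing the data.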
